A study of Homo sapiens with 8 samples.

Results

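The genes of the proteasome were represented by 44 of the 18132 genes with a probe set of their own on the arrays. They were taken as the single-gene probe sets whose symbol begins with PSMA to PSMG and a number, with 1 probe set per gene, the one of highest mean over the 8 arrays. That pattern matched 46 genes on 112 probe sets, of which PSMC3IP and PSME3IP1, proteins named after a proteasome subunit without being one, were set apart, and the other 44 genes held 108 probe sets. PSMA6, which has its probe set in common with PRORP, and PSMC5, PSMD7 and PSMD13 were not analysed here. DU145 is a cell line from a brain metastasis of a prostate carcinoma, and Aldrin is a chlorinated insecticide. Aldrin-exposed cells had been kept with 1 µM Aldrin in DMSO for 50 days (4 arrays) and were set against Non-exposed cells (4 arrays), for which DMSO is not named. All arrays hold RNA of this single line, and no label ties a replicate to a culture of its own, so each p-value refers to the spread between these samples, which may be technical. Values are log2 intensities made with RMA, a procedure that corrects background, equalises the distributions of the arrays and summarises the probes of a set. The level of 1 probe set cannot be compared with that of another, because probes differ in how strongly they bind.

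The proteasome degrades proteins that carry ubiquitin chains. Its barrel, the 20S core, is made of outer rings of alpha subunits, which gate the entrance, and inner rings of beta subunits, some of which cut peptide bonds, and a 19S cap with ATPases unfolds the substrate. Interferon can exchange the cutting subunits for those of the immunoproteasome, which shapes the peptides shown to T cells, and a shortage of proteasome activity raises transcription of the subunit genes through the factor NFE2L1.

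Promoter sequence is shown for the 3 immunoproteasome genes and the activator genes PSME1 and PSME2, the interferon-responsive members, and for PSMB5, the constitutive subunit of largest difference. Sequences are those of RefSeq on GRCh38.p14, 250 bases before and 20 after an annotated start, 5′ to 3′ on the strand of the gene. Capitals mark a match on either strand to the core of the interferon-stimulated response element, spelt GAAA, any 2 bases and GAAA, or to TGACNNNGC, the core of the antioxidant response element, the kind of site that NFE2L1 binds.
PSMB8 (1 of 2 starts, chr6:32844028-32844297, minus strand): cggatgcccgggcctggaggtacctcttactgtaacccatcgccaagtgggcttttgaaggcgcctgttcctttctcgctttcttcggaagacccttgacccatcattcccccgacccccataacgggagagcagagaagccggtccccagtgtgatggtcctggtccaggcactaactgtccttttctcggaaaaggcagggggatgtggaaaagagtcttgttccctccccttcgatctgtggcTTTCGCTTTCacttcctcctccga
PSMB9 (chr6:32853942-32854211, plus strand): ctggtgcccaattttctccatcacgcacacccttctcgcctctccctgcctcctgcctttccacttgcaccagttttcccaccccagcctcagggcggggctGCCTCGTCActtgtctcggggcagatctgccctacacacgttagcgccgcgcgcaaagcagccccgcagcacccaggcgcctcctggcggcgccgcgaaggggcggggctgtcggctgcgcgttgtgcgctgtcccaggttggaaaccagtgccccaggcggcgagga
PSMB10 (chr16:67936831-67937100, minus strand): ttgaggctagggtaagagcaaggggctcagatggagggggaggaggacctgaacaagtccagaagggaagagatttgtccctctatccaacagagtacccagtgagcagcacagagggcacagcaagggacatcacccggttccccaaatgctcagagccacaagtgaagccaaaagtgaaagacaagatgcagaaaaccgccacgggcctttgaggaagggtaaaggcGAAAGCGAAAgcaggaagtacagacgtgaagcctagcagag
PSME1 (chr14:24135944-24136213, plus strand): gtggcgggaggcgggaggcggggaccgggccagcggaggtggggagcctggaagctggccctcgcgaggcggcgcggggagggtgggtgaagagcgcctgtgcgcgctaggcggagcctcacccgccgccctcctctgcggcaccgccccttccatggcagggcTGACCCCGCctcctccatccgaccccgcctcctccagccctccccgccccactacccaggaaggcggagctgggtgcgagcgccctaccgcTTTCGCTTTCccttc
PSME2 (chr14:24146591-24146860, minus strand): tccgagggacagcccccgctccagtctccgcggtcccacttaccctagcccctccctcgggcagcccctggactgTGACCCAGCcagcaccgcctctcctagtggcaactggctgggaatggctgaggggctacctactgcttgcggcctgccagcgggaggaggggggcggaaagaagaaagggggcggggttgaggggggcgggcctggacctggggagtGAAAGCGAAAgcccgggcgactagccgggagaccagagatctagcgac
PSMB5 (1 of 2 starts, chr14:23035201-23035470, minus strand): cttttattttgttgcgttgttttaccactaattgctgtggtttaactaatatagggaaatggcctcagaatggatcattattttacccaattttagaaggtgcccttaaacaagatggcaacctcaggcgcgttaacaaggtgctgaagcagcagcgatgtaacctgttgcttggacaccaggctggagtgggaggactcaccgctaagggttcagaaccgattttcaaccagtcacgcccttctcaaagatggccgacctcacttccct

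The interferon core was found in the windows of PSMB8, PSMB10, PSME1 and PSME2, and the antioxidant core in those of PSMB9, PSME1 and PSME2. Where a gene had 2 starts, the start with more interferon cores was printed. The PSMB8 window was thus chosen for its match, and the other PSMB8 start did not hold the core. The matches did not overlap each other in any window printed, and a window was counted once however many it held. Windows were given for 38 of the 44 genes, 45 in all. Matches were counted over the full windows, which run further past the start than the stretches printed. The interferon core stood in 7 of these windows (15.6%), the other genes being PSMB4, PSMG4 and PSMA4, and in 3.57% of 35116 windows of all genes. The antioxidant core stood in 14 of them (31.1%) and in 13.3% of all windows. A match is a run of letters and not a measured site.

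No proteasome gene of the Aldrin-exposed cells differed from the Non-exposed cells beyond the spread of the arrays. In RNA of whole cultures, fewer cells with a transcript and less of it per cell cannot be told apart. Of the 44 genes 0 passed limma's test with Benjamini-Hochberg adjustment over 49293 probe sets at a threshold of 0.05, as 0.00203% of all probe sets did, and adjusted p = 1 for each member. In the same limma test an unadjusted p was under 0.05 in 0 of them, against 2.76% of all genes and 1.01% of genes whose mean log2 intensity was at least 10, as that of 42 members was. A test with unequal variances also passed 0 after adjustment, with 1 gene at an unadjusted p under 0.05, PSMC1. In 0 of them did the 4 Aldrin-exposed arrays lie apart from the 4 Non-exposed arrays, against 1.75% of all genes and 0.746% of those with a mean of at least 10. The lower mean was in Aldrin-exposed cells for 25 genes and the higher for 19. The 25 are 56.8%, against 54.2% of all genes and 48.8% of those with a mean of at least 10. Differences in log2 level, Aldrin-exposed minus Non-exposed, ran from -0.17 for PSMB5 to 0.20 for PSMD10, with a median of -0.01 for the members and for all genes alike. The median size of the difference was 0.0351 among the members, 0.0699 among all genes and 0.0634 among those with a mean of at least 10. The 95% interval of the difference lay within 0.32 of 0 on the log2 scale for 29 members (65.9%, against 48.0% of all genes). It lay within 0.58, a 1.5-fold change, for 41 (93.2%, against 90.0% of all genes). PSMB8, PSMD10 and PSMG4 were the members whose intervals reached beyond 1.5-fold. The spread of arrays within a condition was taken as the SD pooled over both. Its median was 0.123 over the members, 0.157 over all genes and 0.174 over those with a mean of at least 10.

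**Figure D1:**
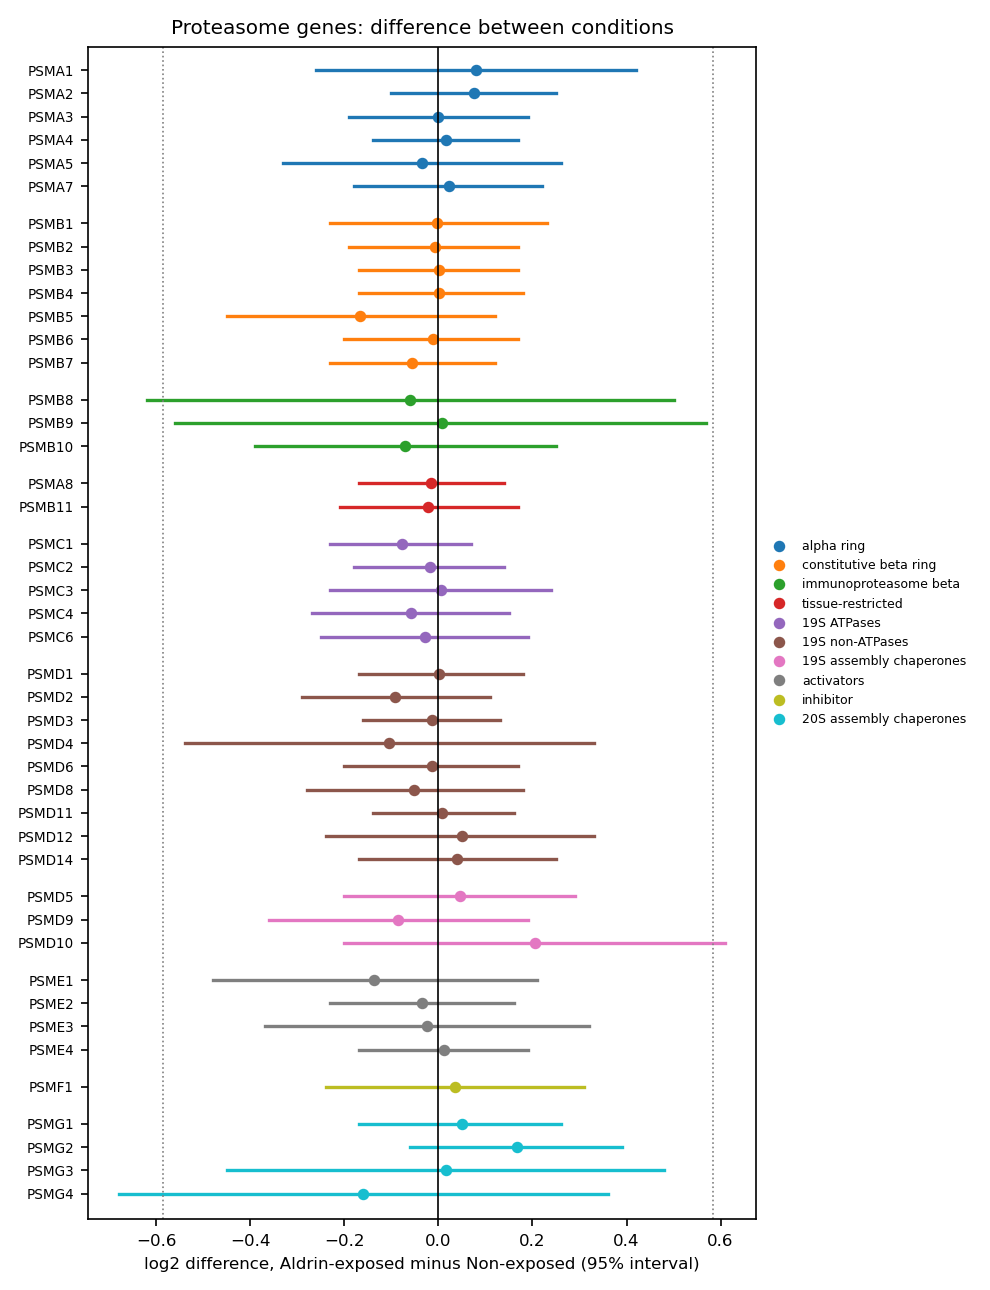
Log2 difference, Aldrin-exposed minus Non-exposed, for 44 proteasome genes, by class, with points for the difference of means (4 arrays each), lines for limma's 95% interval and dotted lines at a 1.5-fold change. Every interval holds 0, and those of PSMB8, PSMD10 and PSMG4 cross a dotted line.

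The constitutive catalytic subunits are PSMB6 (β1), which cuts after acidic residues, PSMB7 (β2), which cuts after basic ones, and PSMB5 (β5), which cuts after hydrophobic ones and is the main target of the drug bortezomib. PSMB5 had log2 values of 12.62, 12.20, 12.16 and 12.46 on the Aldrin-exposed arrays 1 to 4, against 12.60, 12.62, 12.61 and 12.27 on the Non-exposed arrays. Exposed replicates 2 and 3 lay below every Non-exposed array, exposed replicate 1 lay level with the highest, and the groups overlapped. The difference was -0.17 (standard error 0.13, 95% interval -0.45 to 0.12) with p = 0.229 by the exact permutation test (two-sided), and the smallest p that this design can reach is 0.0286. The other 4 PSMB5 probe sets had differences between -0.07 and 0.03. PSMB6 had 13.79, 13.68, 13.62 and 13.76 on the Aldrin-exposed arrays, against 13.81, 13.70, 13.81 and 13.58 on the Non-exposed arrays, and PSMB7 had 13.09, 13.07, 12.99 and 12.99 against 13.20, 13.12, 13.10 and 12.95. For PSMB6 the groups overlapped widely, while for PSMB7 3 of the 4 Non-exposed arrays lay above every Aldrin-exposed array and Non-exposed replicate 4 lay below them all. The differences were -0.01 for PSMB6 (95% interval -0.20 to 0.17) and -0.06 for PSMB7 (95% interval -0.23 to 0.12). The intervals of these 3 transcripts lay between -0.45 and 0.17.

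The immunoproteasome subunits PSMB8 and PSMB9 had the largest pooled SD of the 44 members, and PSMB10 had a smaller one, 0.221. PSMB8 (β5i) had 11.19, 11.16, 10.27 and 10.86 on the Aldrin-exposed arrays, against 11.24, 11.16, 10.98 and 10.33 on the Non-exposed arrays. PSMB9 (β1i) had 11.64, 11.54, 10.58 and 11.40 on the Aldrin-exposed arrays, against 11.42, 11.37, 11.57 and 10.76 on the Non-exposed arrays. Both were lowest on exposed replicate 3 and Non-exposed replicate 4, and the other 6 arrays read 10.86 or more for PSMB8 and 11.37 or more for PSMB9. PSMB10 (β2i) had 11.52, 11.23, 11.27 and 11.50 on the Aldrin-exposed arrays, against 11.60, 11.70, 11.42 and 11.08 on the Non-exposed arrays, and was lowest on Non-exposed replicate 4 and exposed replicate 2. Differences were -0.06 for PSMB8 (95% interval -0.62 to 0.50), 0.01 for PSMB9 (95% interval -0.56 to 0.57) and -0.07 for PSMB10 (95% interval -0.39 to 0.25). The exact permutation test gave p = 0.714, p = 1 and p = 0.686 for PSMB8, PSMB9 and PSMB10. The pooled SD was 0.419 at the median of the 3, against 0.0867 for the 7 constitutive beta genes, noncatalytic ones included. By site it was 0.419 for PSMB8 against 0.196 for PSMB5, and 0.424 for PSMB9 against 0.0951 for PSMB6. For PSMB10 it was 0.221, against 0.0826 for PSMB7. These arrays thus bound a change of an immunoproteasome subunit less closely than one of its constitutive counterpart. Without both low arrays the pair PSMB8 and PSMB9 read 11.07 ± 0.18 and 11.53 ± 0.12 in Aldrin-exposed cells, against 11.13 ± 0.14 and 11.46 ± 0.11 in Non-exposed cells (SD, n = 3), with differences of -0.06 and 0.07. The second PSMB8 probe set and both further PSMB9 probe sets were lowest on the same arrays, for PSMB8 at 8.36 on exposed replicate 3 and 8.13 on Non-exposed replicate 4. The third PSMB8 probe set, near the bottom of the scale at a mean of 5.19, was not.

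**Figure D2:**
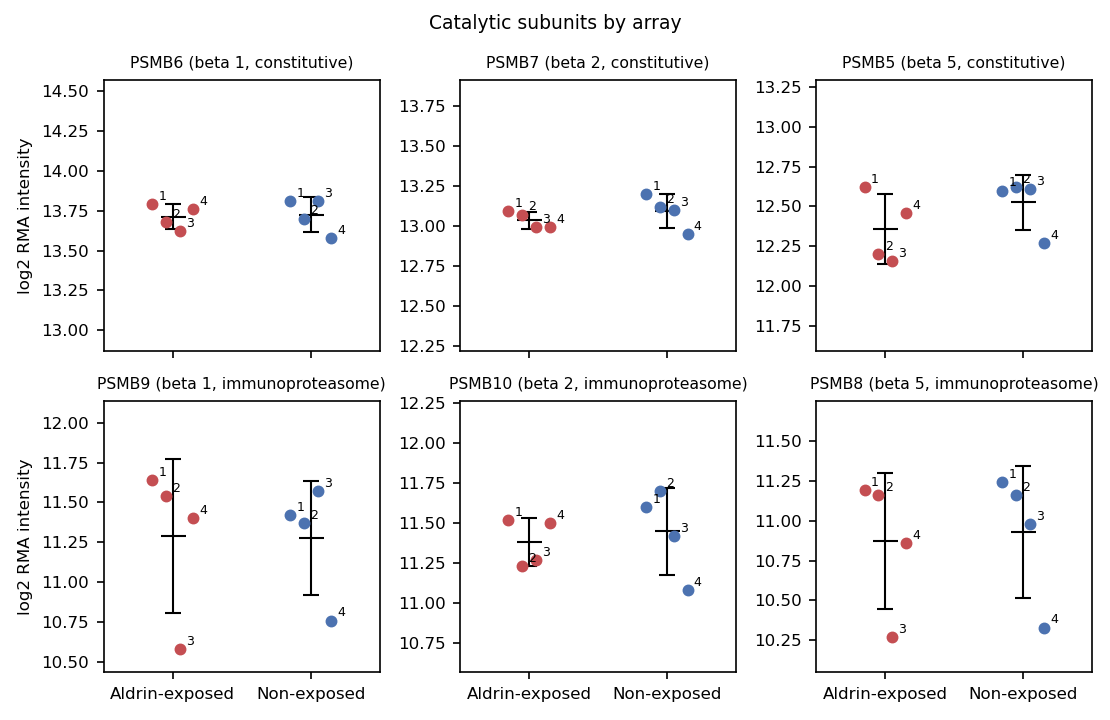
Log2 RMA intensity of the constitutive catalytic subunits (top row) and of the immunoproteasome subunits that replace them (bottom row), with a point for each array, numbered by replicate, and bars for mean and SD (n = 4). Vertical axes cover the same log2 span in each panel. PSMB8 and PSMB9 drop on Aldrin-exposed replicate 3 and Non-exposed replicate 4, and the groups overlap in every panel.

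Among the remaining core genes no difference was larger than 0.08. Of the 6 alpha ring genes 4 had the higher mean in Aldrin-exposed cells and 2 the lower, 0 of them past the threshold, with differences from -0.04 to 0.08. PSMA2, the alpha gene of smallest p, had 13.14, 13.07, 13.18 and 13.08 on the Aldrin-exposed arrays, against 12.99, 13.14, 12.92 and 13.12 on the Non-exposed arrays. The difference was 0.07 (95% interval -0.10 to 0.25), with overlap. PSMA1, with the largest difference of the ring, read 12.23 ± 0.24 in Aldrin-exposed cells, against 12.15 ± 0.25 in Non-exposed cells (SD, n = 4), a difference of 0.08. Among the constitutive beta genes 5 had the lower and 2 the higher mean, and the noncatalytic PSMB1, PSMB2, PSMB3 and PSMB4 all lay within 0.01 of 0. PSMA8, the testis form of an alpha subunit, and PSMB11, the catalytic subunit of the thymus, read 4.91 ± 0.05 and 4.13 ± 0.11 in Aldrin-exposed cells, against 4.92 ± 0.05 and 4.15 ± 0.08 in Non-exposed cells (SD, n = 4). Both lie under the lower quartile of probe set means, 5.87, and were the 2 members that a filter at the 40th percentile, 7.22, removed, so that 42 passed it.

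In the 19S cap the ATPases, which unfold the substrate, had the lower mean in 4 of 5 genes, with a median difference of -0.03 and 0 past the threshold. PSMC1 had the smallest pooled spread of these, at 0.0396. Its values were 12.80, 12.70, 12.79 and 12.79 on the Aldrin-exposed arrays, against 12.87, 12.87, 12.80 and 12.86 on the Non-exposed arrays. The groups met at 12.80, the highest exposed and the lowest Non-exposed value. The difference was -0.08 (95% interval -0.23 to 0.07), with p = 0.0571 by the exact permutation test, and the other PSMC1 probe set had -0.03. By the unequal-variance test its unadjusted p was 0.0373 and its adjusted p = 1, and it was the sole member that any test run on all 8 arrays put under 0.05 before adjustment.

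Of 9 non-ATPase genes of the cap 5 had the lower mean and 4 the higher, with 0 past the threshold and a median difference of -0.01. PSMD2, a scaffold of the base and the one of smallest p, read 13.41 ± 0.10 in Aldrin-exposed cells, against 13.50 ± 0.12 in Non-exposed cells (SD, n = 4), a difference of -0.09. PSMD4, a receptor for ubiquitin chains and the one of largest difference, had 13.17, 12.89, 12.39 and 13.07 on the Aldrin-exposed arrays, against 13.18, 12.98, 13.20 and 12.59 on the Non-exposed arrays. Its 2 lowest values again fell on exposed replicate 3 and Non-exposed replicate 4, and the difference was -0.11 (95% interval -0.54 to 0.33). PSMD14, the deubiquitinase of the cap, differed by 0.04, and PSMD3 had the smallest pooled SD of all members, 0.0339, and differed by -0.01 (95% interval -0.16 to 0.13). PSMD14, PSMD3 and the 4 noncatalytic beta genes were named after their values were seen.

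The chaperones that assemble the particle included the largest difference and the smallest p. PSMD10 (gankyrin), which guides ATPases into the cap, had 11.12, 11.35, 10.62 and 11.19 on the Aldrin-exposed arrays, against 11.14, 10.84, 11.00 and 10.49 on the Non-exposed arrays. On the exposed side replicate 3 lay below 3 of the Non-exposed arrays, and the other 3 exposed arrays lay above or close to the highest Non-exposed one. The difference was 0.20 (standard error 0.18, 95% interval -0.20 to 0.61, p = 0.4 by the exact permutation test), and the second PSMD10 probe set had 0.12. Without exposed replicate 3 the difference was 0.35 with an unadjusted limma p of 0.0451 and adjusted p = 1. Without Non-exposed replicate 4 it was 0.08 with an unadjusted limma p of 0.646. Without both low arrays it was 0.23 with an unadjusted limma p of 0.076. PSMG2, which pairs with PSMG1 in building the alpha ring, had 10.82, 11.19, 11.09 and 10.93 on the Aldrin-exposed arrays, against 10.90, 10.84, 10.69 and 10.93 on the Non-exposed arrays. Exposed replicates 2 and 3 lay above every Non-exposed array and exposed replicate 1 below 3 of them. The difference was 0.17 (standard error 0.10, 95% interval -0.06 to 0.39, p = 0.171 by the exact permutation test), and its unadjusted limma p of 0.128 was the smallest of the 44 genes. The other 20S chaperones PSMG1, PSMG3 and PSMG4 differed by 0.05, 0.02 and -0.16, and the other 19S chaperones PSMD5 and PSMD9 by 0.04 and -0.09.

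PSME1 and PSME2, the interferon-responsive subunits of an activator that opens the core without ATP, had the lower mean in Aldrin-exposed cells and did not pass. PSME1 had 12.08, 11.91, 11.51 and 11.91 on the Aldrin-exposed arrays, against 12.08, 12.03, 12.22 and 11.64 on the Non-exposed arrays, lowest on the same arrays as PSMB8 and PSMB9. Its difference was -0.14 (95% interval -0.48 to 0.21), and -0.14 again without both arrays. PSME2 read 11.51 ± 0.08 in Aldrin-exposed cells, against 11.54 ± 0.12 in Non-exposed cells (SD, n = 4). PSME3, the nuclear activator, read 12.57 ± 0.24 in Aldrin-exposed cells, against 12.60 ± 0.25 in Non-exposed cells, and PSME4, which serves in DNA repair and spermatogenesis, 11.66 ± 0.12 and 11.65 ± 0.04 (SD, n = 4). PSMF1, an inhibitor of the core in the test tube, read 12.41 ± 0.22 in Aldrin-exposed cells, against 12.37 ± 0.13 in Non-exposed cells (SD, n = 4), a difference of 0.03 (95% interval -0.24 to 0.31).

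On 2 arrays, 1 of each condition and singled out after the values were seen, a part of the proteasome genes were low together. Exposed replicate 3 and Non-exposed replicate 4 were the 2 lowest of the 8 arrays for 16 of 44 members (36.4%), against 18.3% of all genes and 24.3% of genes with a mean of at least 10. They were the 2 highest for 3 members (6.82%), PSMA1, PSMD1 and PSMD5, against 11.0% of all genes and 18.9% of genes with a mean of at least 10. Taken singly, exposed replicate 3 was the lowest array for 27.3% of members, against 25.1% of all genes. Non-exposed replicate 4 was the lowest for 22.7%, against 13.6% of all genes. Arrays not singled out had such shares too, Non-exposed replicate 3 with 20.5% against 12.4% and exposed replicate 2 with 18.2% against 16.3%. Exposed replicate 3, exposed replicate 2 and Non-exposed replicate 2 were each the highest for 9 members, and Non-exposed replicate 4 for 0. The share of all genes highest on an array was not counted, so these counts are not read as a result. The median deviation over the members was -0.06 on exposed replicate 3 and -0.09 on Non-exposed replicate 4. Deviations of these arrays from the mean of the 8 correlated with each other over all 18132 genes (r = 0.69), genes that share both hybridisations. On them the immunoproteasome genes had a median deviation of -0.63 on exposed replicate 3 and -0.52 on Non-exposed replicate 4. PSMB10 alone stood at -0.15 and -0.34. The constitutive beta genes had medians of -0.10 and -0.13 on the same arrays, the 19S chaperones -0.26 and -0.24, and the alpha ring -0.01 and 0.01. Members of a class did not all move alike. Of the 19S chaperones PSMD9 had -0.26 and -0.24 and PSMD10 -0.34 and -0.48, while PSMD5 had 0.25 and 0.17. The alpha ring ran from PSMA1 at 0.33 and 0.21 to PSMA5 at -0.14 and -0.26. PSMF1 stood above its mean on both, by 0.23 and 0.10. The log2 difference between the 3′ and 5′ control probe sets of ACTB was 0.24 on exposed replicate 3 and 0.23 on Non-exposed replicate 4, within the range of 0.16 to 0.45 over the 8 arrays. That of GAPDH was 0.65 and 0.59, in a range of 0.39 to 0.65 whose upper end is exposed replicate 3, and the part of RNA quality in the low values was not tested. With both arrays left out, 0 members passed the adjusted test, 0 had an unadjusted p under 0.05 in limma (3.33% of all genes), and PSMB7, PSMB11, PSMC4 and PSMD2, or 9.09% of the members, were without overlap, against 7.8% of all genes. The differences of these 4 were -0.09, -0.10, -0.12 and -0.11, and PSMB11 lies near the bottom of the scale. With both arrays left out, 29 of the 44 members had the lower mean in Aldrin-exposed cells. The share of all genes with the lower mean was not counted in that setting, so the shared direction is not read as a result.

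**Figure D3:**
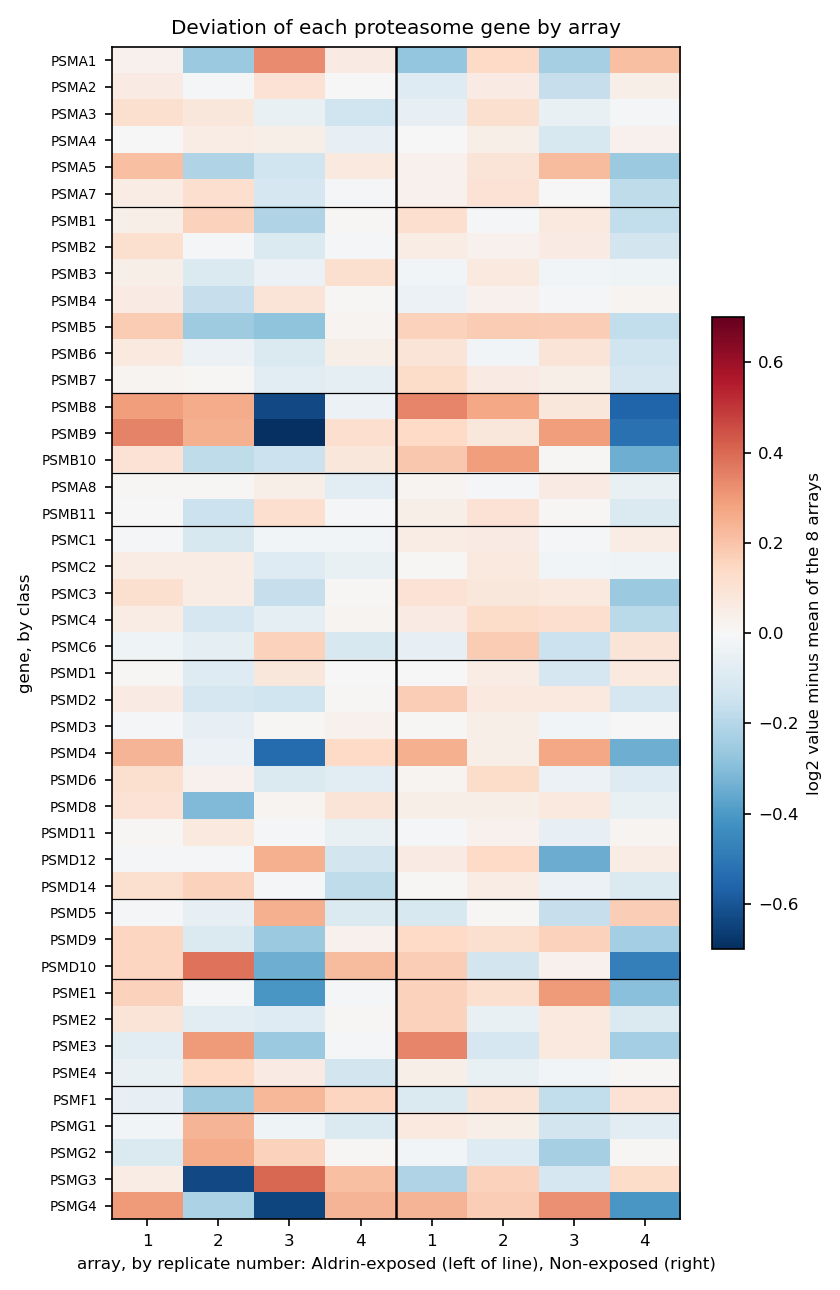
Deviation of the log2 value from the mean of the 8 arrays for each of 44 proteasome genes (rows, in the order of classes used in the plot of differences) on each array (columns, Aldrin-exposed left of the line and Non-exposed right, by replicate number). Blue is below and red above the gene's mean, and the colour scale ends at 0.7 either way. PSMB8, PSMB9, PSMD4, PSMD10 and PSMG4 are blue on Aldrin-exposed replicate 3 and Non-exposed replicate 4.

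The choice of probe set did not bring out a difference. Of the 108 probe sets of the members 0 had an unadjusted p under 0.05 in limma, against 3.07% of all probe sets, and the smallest was 0.12. Among 32 genes with more than 1 probe set, all probe sets had the same sign in 15 and both signs occurred in 17. The widest spread was that of PSMC2, with -0.02, 0.32 and -0.25 at mean levels of 13.01, 9.53 and 6.62. PSMB9 ran from -0.15 to 0.19 over its 3 probe sets. In 7 genes, PSMA2, PSMC1, PSMB10 and PSMD4 among them, the probe set used carries the suffix x. By it Affymetrix marks probes that also match other sequences, so the signal of these genes may hold that of a related transcript. In 8 others, PSMB5 and PSMD2 among them, the probe set used carries the suffix s, and a share of other transcripts in its signal was not tested.

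**Figure D4:**
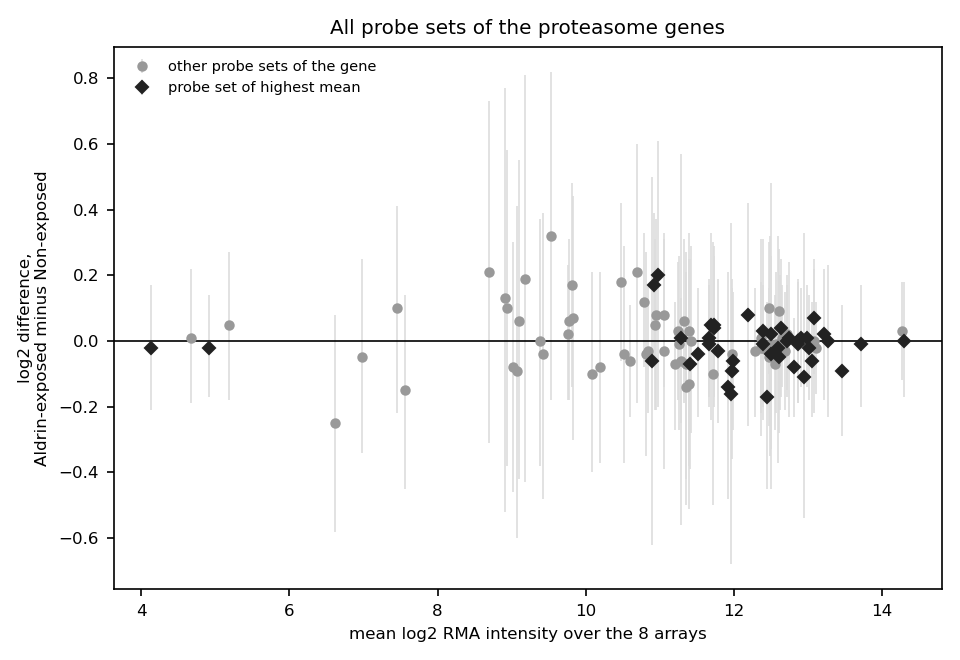
Log2 difference, Aldrin-exposed minus Non-exposed (vertical axis, with limma's 95% interval) against mean log2 RMA intensity over the 8 arrays for the 108 probe sets of 44 proteasome genes. Black diamonds are the probe sets used for each gene and grey circles the others. No interval excludes 0, and the outermost points are those of PSMC2 at 0.32 and -0.25.

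Partners of the particle gave 0 genes past the threshold in either direction. Of 11 measured of 12 listed, 8 had the higher and 3 the lower mean (median difference 0.03). ECPAS, which clamps cap and core together, had 11.39, 11.00, 11.27 and 11.27 on the Aldrin-exposed arrays, against 11.33, 11.49, 11.47 and 11.32 on the Non-exposed arrays. Its difference was -0.17 (95% interval -0.39 to 0.05) and the arrays overlapped. TXNL1, a thioredoxin bound to the cap, differed by 0.22 (95% interval -0.10 to 0.53), and POMP, the chaperone of beta ring assembly, by 0.09.

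The NFE2L1 list holds the factors and genes of the release, processing and turnover of NFE2L1, FBXW7 and BTRC among the last. Of its 13 genes 8 had the higher and 5 the lower mean, 0 past the threshold (median difference 0.01). NFE2L1 itself read 12.50 ± 0.07 in Aldrin-exposed cells, against 12.51 ± 0.11 in Non-exposed cells (SD, n = 4). The activity of the protein was not measured. NPLOC4, a partner of VCP in drawing proteins out of the endoplasmic reticulum, had 11.65, 11.89, 11.58 and 11.60 on the Aldrin-exposed arrays, against 11.53, 11.56, 11.51 and 11.54 on the Non-exposed arrays. It was the 1 gene without overlap between the conditions in the 4 lists, which held 11, 13, 7 and 8 measured genes, and 1.75% of all genes had no overlap. The difference was 0.15 (95% interval -0.05 to 0.34, adjusted p = 1 in limma), with exact permutation p = 0.0286, the smallest that 4 against 4 arrays can give. NGLY1, which strips sugar chains from NFE2L1, differed by 0.14 (95% interval -0.08 to 0.36).

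Among the genes of ubiquitin, its activating enzymes and the shuttle proteins, 7 of 11 were measured, and 6 had the higher and 1 the lower mean, 0 past the threshold (median difference 0.04). UBB, a gene of ubiquitin itself, read 13.72 ± 0.03 in Aldrin-exposed cells, against 13.66 ± 0.05 in Non-exposed cells (SD, n = 4), and UBA6, an activating enzyme, differed by 0.15 (95% interval -0.29 to 0.60). Of antigen presentation 8 of 9 genes were measured, 4 of them higher and 4 lower on average in Aldrin-exposed cells, 0 past the threshold (median difference 0.01). TAP1, a peptide transporter encoded next to PSMB9 and read from the same stretch of promoter in the opposite direction, had 11.64, 11.46, 11.46 and 11.33 on the Aldrin-exposed arrays, against 11.51, 11.80, 11.39 and 11.26 on the Non-exposed arrays. It was lowest on Non-exposed replicate 4 and not set apart on exposed replicate 3, where PSMB9 was lowest. IRF1, an interferon-induced transcription factor, and ERAP2, which trims peptides, differed by 0.10 (95% interval -0.08 to 0.29) and 0.18 (95% interval -0.17 to 0.53).

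**Figure D5:**
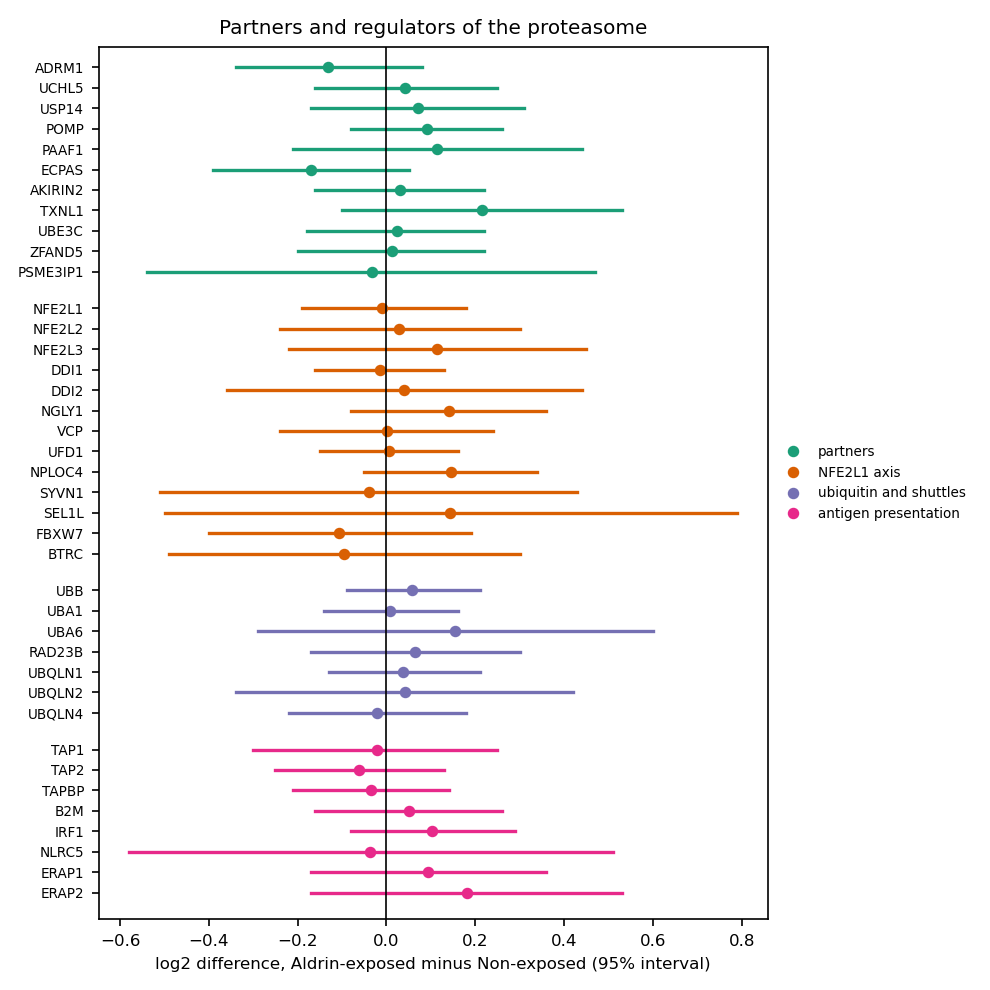
Log2 difference, Aldrin-exposed minus Non-exposed, for the measured genes of 4 lists of proteasome partners and regulators, with points for the difference of means (4 arrays each) and lines for limma's 95% interval. Every interval holds 0.

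Markers bear on what the samples held. Epithelial keratins, EPCAM and CDH1 (5 of 5 measured) had a list mean of 11.51 to 11.61 on the Aldrin-exposed arrays, against 11.71 to 11.87 on the Non-exposed arrays. All 5 had the lower mean in Aldrin-exposed cells, CDH1 by the most (-0.46, adjusted p = 1 in limma), and their part in the proteasome values was not tested. KLK2 and KLK3, secreted by luminal prostate cells, had a mean of 5.79 to 6.00 on the Aldrin-exposed and 5.73 to 6.08 on the Non-exposed arrays, near the lower quartile of probe sets. Leukocyte (3 of 4 measured), fibroblast and endothelial markers (3 of 3 each) had list means of 5.63 to 5.89, 6.06 to 6.24 and 6.82 to 7.17 on the Aldrin-exposed arrays. On the Non-exposed arrays those lists had 5.68 to 5.87, 6.07 to 6.24 and 6.92 to 7.23.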

How the data were processed

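RNA of 4 Aldrin-exposed and 4 Non-exposed samples of DU145 cells was hybridised to single-color Affymetrix arrays. The authors deposited log2 intensities per probe set, made with RMA, which quantile normalizes the arrays, so a shift common to a whole array is not visible. RMA's version and the probe definition are not given in the sources used here, and 0 value columns were unused. Without 102 controls among the 49395 probe sets, 49293 entered the test. The test was limma's moderated one (version 3.58.1, R 4.3.3), two-sided, with Benjamini-Hochberg adjustment and a threshold of 0.05, and it was checked on simulated data. Of these probe sets, 44988 name 1 gene in the platform's annotation. Tables and exact permutation tests were made with numpy 2.4.6 and pandas 2.3.3 under Python 3.11.15, and plots with matplotlib 3.10.9.

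The members, classes, lists and tests were chosen with earlier results of these data known. Values were printed for the catalytic subunits and their replacements, the activators, the inhibitor, and in each class the genes of smallest p and of largest difference, and for each list the 2 genes of smallest p with NFE2L1, POMP and TAP1. Alternatives were another test and variance model, weights for the arrays, a block for the replicate number, centring on the median, quantile normalization once more, a filter on dim probe sets, 1 or the mean probe set per gene, and each array left out. Leaving out 2 arrays together was chosen after seeing the data. The number of arrays limits the precision.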

Additional observations from a re-analysis of the deposited data

Results flagged for a closer look

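In 7 of 88 groups of 4 arrays, 1 array of a member lay farther from the rest than Dixon's 95% critical value allows. About 4.4 are expected, since chance flags 1 group in 20. Such flags were not counted over all genes, so the 7 are not read as particular to the proteasome genes. On Non-exposed replicate 4 these were PSMB2 at 12.73 (the other arrays of the condition 12.90 to 12.93), PSMB5 at 12.27 (others 12.60 to 12.62), the ATPase PSMC3 at 12.48 (others 12.81 to 12.85) and the chaperone PSMD9 at 11.73 (others 12.08 to 12.13), each the lowest of its condition. PSMC1 was low on exposed replicate 2 at 12.70 (others 12.79 to 12.80) and on Non-exposed replicate 3 at 12.80 (others 12.86 to 12.87). PSMB3 was high on Non-exposed replicate 2 at 12.79 (others 12.68 to 12.70).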

How the results depend on the processing

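The count of members past the adjusted threshold was 0 in each of the 18 alternatives. The count at an unadjusted p under 0.05, 0 as reported, was 1 by the unequal-variance test (PSMC1) and 0 to 1 with 1 array left out, the 1 being PSMD10 without Aldrin-exposed replicate 3. The count with the lower mean in Aldrin-exposed cells was 25 as reported, 25 with the replicate number as a block, 23 to 29 over the alternatives that keep all arrays or leave out 2, and 18 to 30 with 1 array left out, the lowest without Non-exposed replicate 2. The median difference, -0.01, ran from -0.022 to -0.004 over those settings and from -0.039 to 0.011 with 1 array left out. Of 19 named members 8 kept their sign under every alternative run for them, and over 341 values 0 passed, with a smallest adjusted p of 0.823. Deviations of same-numbered arrays from their group means had correlations of 0.314, -0.344, -0.719 and -0.079 for numbers 1 to 4. Exposed replicate 3 and Non-exposed replicate 4, of different numbers, had 0.783. A pairing by number is not visible in these values, but they cannot exclude a culture or date shared by arrays of the same number. PSMB11 has no value under the dim filter. With 4 arrays a condition, the limma intervals of PSMB8, PSMD10 and PSMG4 reach beyond 1.5-fold.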
